A study of Mus musculus with 4 samples.

Results

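The heat shock factor Hsf1 and 9 chaperone genes of the heat shock response were compared between MUT_CTCF and WT_CTCF mESCs: Hspa1a, Hspa1b, Hspa8, Hsph1, Hspb1, Dnajb1, Hsp90aa1, Hspd1 and Hspe1. They were chosen by gene symbol and are 10 of the 37620 genes in the count table. All 10 passed the filter on low counts and were among the 16264 genes tested. Hspd1 and Hspe1 encode the chaperonin of the mitochondrial matrix, so the set is not cytosolic throughout.

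The study asked, with RNA-seq among other assays, what the loss of one O-GlcNAc site of the architectural protein CTCF does in mouse embryonic stem cells (mESCs). In both lines the endogenous CTCF carried a degron tag and was removed with auxin, and a vector supplied CTCF in its place. WT_CTCF cells (genotype label WT) received the wild-type protein, and MUT_CTCF cells (genotype label MUT) received CTCF with alanine in place of threonine T668. Each line was a clone picked for exogenous CTCF close to the endogenous level, so a difference between the lines and a difference between 2 clones cannot be told apart. Both lines grew on gelatin in serum medium with LIF, and the methods give 2 days in auxin for the picked clones without naming the time for the RNA samples. There were 2 libraries per line, described as biological replicates with no further detail, so the p-values measure the spread between these libraries. In edgeR's tests, the spread of a gene was estimated partly from all tested genes.

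HSF1 is the main transcription factor of the heat shock response. In unstressed cells it is held inactive by chaperones, and when unfolded proteins engage these chaperones it forms trimers and binds heat shock elements, which are alternating repeats of the bases GAA and TTC in the promoters of chaperone genes. HSP70 and HSP90 proteins fold their clients with ATP, J-domain proteins and HSP110 regulate the HSP70 cycle, and small heat shock proteins hold unfolded proteins without ATP. Embryonic stem cells are known for high constitutive levels of several chaperones.

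The libraries held 40524694 to 40977464 counts, with TMM scaling factors from 0.994 to 1.01. Ctcf, read without a distinction between endogenous and exogenous transcripts, had a log2 fold change of 0.044 of MUT_CTCF over WT_CTCF (SE 0.028, adjusted p = 0.499), and Ogt, which encodes the transferase of O-GlcNAc, had -0.096 (SE 0.042, adjusted p = 0.255). The 8 mESC markers were present in every library, with summed normalized counts of 216900 to 217000 in WT_CTCF and 217200 to 217300 in MUT_CTCF. One of the 8 was called higher (Sox2, log2 fold change 0.095, adjusted p = 0.0358) and one lower (Dppa4, -0.21, adjusted p = 0.0462), and neither was called with no filter or with any library left out. Under the 8 alternative settings that kept all 4 libraries, Sox2 was called in 6 and Dppa4 in 4. The 8 fibroblast or feeder markers summed to 1016 to 1040 normalized counts in WT_CTCF and 1072 to 1252 in MUT_CTCF. Of these, 5 were tested and none passed (1 at an unadjusted p under 0.05, Col3a1, with raw counts of 26, 23, 12 and 5 in WT_CTCF 1, WT_CTCF 2, MUT_CTCF 1 and MUT_CTCF 2), and the part of such cells in the results was not tested. Lum was at 0 in all 4 libraries, Dcn at 0 to 6 counts and Postn at 0 to 4. A count of 0 still allows up to 3 counts, for counting error only.

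In the comparison of MUT_CTCF with WT_CTCF, 4 of the 10 genes fell and 0 rose at the 0.05 threshold on adjusted p-values (edgeR's quasi-likelihood test, Benjamini-Hochberg adjustment over all 16264 genes). The 4 were the HSP110 gene Hsph1, the small heat shock protein gene Hspb1, the inducible HSP90 gene Hsp90aa1 and the mitochondrial co-chaperonin gene Hspe1. Their decreases were small and alike in size, from -7.13% to -9.12%, and in each of the 4 both MUT_CTCF libraries lay below both WT_CTCF libraries. Hsf1 itself, the inducible HSP70 genes Hspa1a and Hspa1b, the constitutive HSP70 gene Hspa8, the J-domain gene Dnajb1 and the chaperonin gene Hspd1 did not pass. Among all tested genes 1.61% were called lower (262 genes) and 1.56% higher (253 genes). In bulk RNA, fewer cells with a transcript and less transcript per cell cannot be told apart.

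The count of 4 depended on the settings. No gene of the 10 was called lower when any of the 4 libraries was left out, or when genes with low counts were not filtered. With libraries scaled by size only, and with edgeR's exact test, 3 were called, Hspe1 being lost (adjusted p = 0.0772 and 0.0728). With scaling on genes of more than 5000 mean normalized counts, an alternative chosen after seeing the data, only Hspb1 was called (adjusted p = 0.0279). DESeq2 called the same 4 genes. Across all tested genes these scalings also moved the split of calls, from 253 higher and 262 lower to 260 higher and 152 lower with library size only, and to 299 higher and 130 lower with scaling on genes over 5000 counts.

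The 10 genes are mostly abundant, and among abundant genes a larger share was lower by sign in this comparison. Of the 10, 7 had a mean over 5000 normalized counts, and all 4 called genes were among them. Among the 1875 genes above that level, 7.52% were called lower and 62.4% had a log2 fold change below 0, against 49.2% below 0 among all tested genes. By sign alone, 6 of the 7 abundant heat shock genes and 6 of all 10 were lower. The median log2 fold change of the 10 was -0.064, that of all tested genes 0.0034, and that of genes over 5000 counts -0.022. The median of the 10 was -0.044 with scaling on genes over 5000 counts. Both MUT_CTCF libraries lay below both WT_CTCF libraries in 6 of the 10 genes and above them in 1, where each pattern held for 22.3% of all genes (3635 below and 3627 above), and the libraries overlapped in 3. At an unadjusted p under 0.05, 5 of 10 passed, against 15.3% of all genes. With the study's own cut-offs, a fold change above 2 and an unadjusted p under 0.05, 0 of 10 were called by edgeR's quasi-likelihood test, its exact test or DESeq2, and 0 with a fold change limit of 1.5, while 0.947% of all genes were called higher and 0.357% lower.

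**Figure D1:**
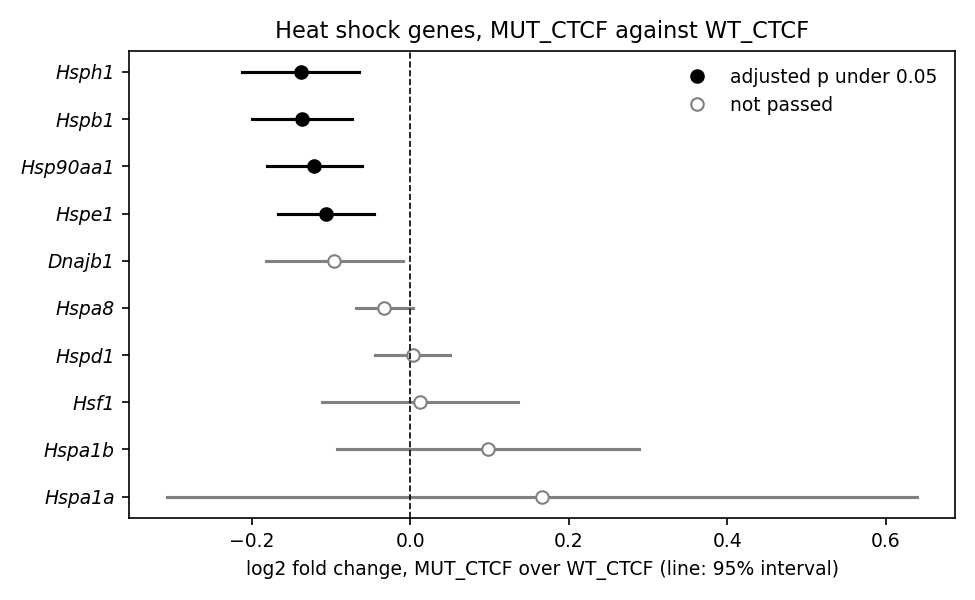
Log2 fold change of MUT_CTCF over WT_CTCF (x axis) for each of the 10 genes, with its 95% interval as a line; filled points have an adjusted p under 0.05. The 4 filled points lie between -0.14 and -0.11, and the widest interval is that of Hspa1a, from -0.31 to 0.64.

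The levels of the 10 genes differed widely. Per length, as RPKM (counts scaled to annotated exon length and library size) averaged over the 4 libraries, Hspa8 was highest at 824, followed by Hspd1 at 367, Hspb1 at 337, Hspe1 at 238, Hsp90aa1 at 92.0, Dnajb1 at 51.4, Hsph1 at 26.1, Hsf1 at 23.9, Hspa1b at 7.35 and Hspa1a at 1.02. Annotated exons were joined over all transcripts of a gene and can be much longer than its longest coding transcript. They held 1474 bases against 774 in Hspe1, 7042 against 3802 in Hsph1, 4156 against 2394 in Hspa8 and 2642 against 2423 in Hspd1. The order of Hspd1, Hspb1 and Hspe1, and the distance of Hsph1 from Hsf1, therefore depend on the length used, as do the ratios per length below. By annotated exon length, only Hsph1 and Hsf1 were not separated by the spread of their libraries. Hsph1 stood at an RPKM of 27.3 ± 0.32 (SD, n = 2) and Hsf1 at 23.8 ± 0.29 in WT_CTCF, and the genes overlapped in MUT_CTCF at 24.8 ± 0.56 and 23.98 ± 1.28. Together the 10 genes took 0.576% to 0.593% of all counts in a library.

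**Figure D2:**
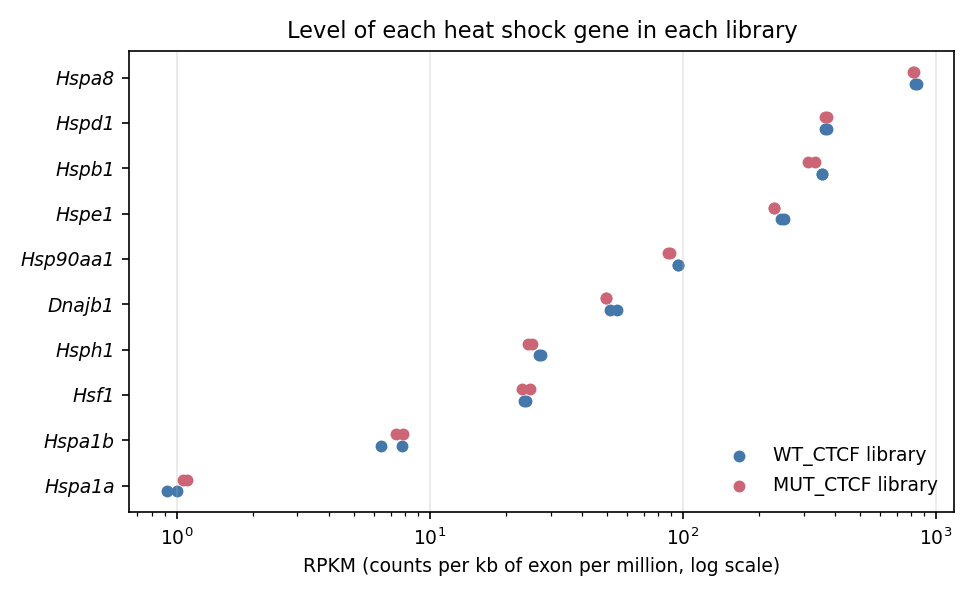
Level of each gene in each library as RPKM (log scale), with WT_CTCF libraries in blue and MUT_CTCF libraries in red. The constitutive Hspa8 averaged 824 and the inducible Hspa1a 1.02, and within each gene the libraries of both lines lie close together.

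These levels are of uniquely mapped reads, and several of the genes share much of their transcript with other places in the genome. Of all stretches of 50 bases in the transcript, 75.7% in Hspa8, 73.1% in Hsp90aa1, 63.0% in Hspb1, 62.3% in Hspa1b, 61.0% in Hspa1a, 58.5% in Hspd1 and 46.5% in Hspe1 also occurred elsewhere in mm9. The share was 0.768% in Dnajb1, and 0 in Hsf1 and Hsph1. The read length was not found in the sources used here, so these shares describe sequence and are not a correction. The annotated pseudogenes that hold such copies had few counts of their own. Reads from the shared stretches would be missing from these counts too, so low counts do not show that the copies were silent. Gm8355, a copy of Hspa8, had 182 and 213 counts in WT_CTCF and 155 and 196 in MUT_CTCF. Gm12141, a copy of Hspd1, had 236, 293, 220 and 226 in the same order, Gm12346, a copy of Hsp90aa1, had 112, 89, 84 and 76, and Hsp25-ps1, a copy of Hspb1, had 12, 7, 6 and 6. Of the 4 genes that fell, only Hsph1 had no shared stretch.

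**Figure D3:**
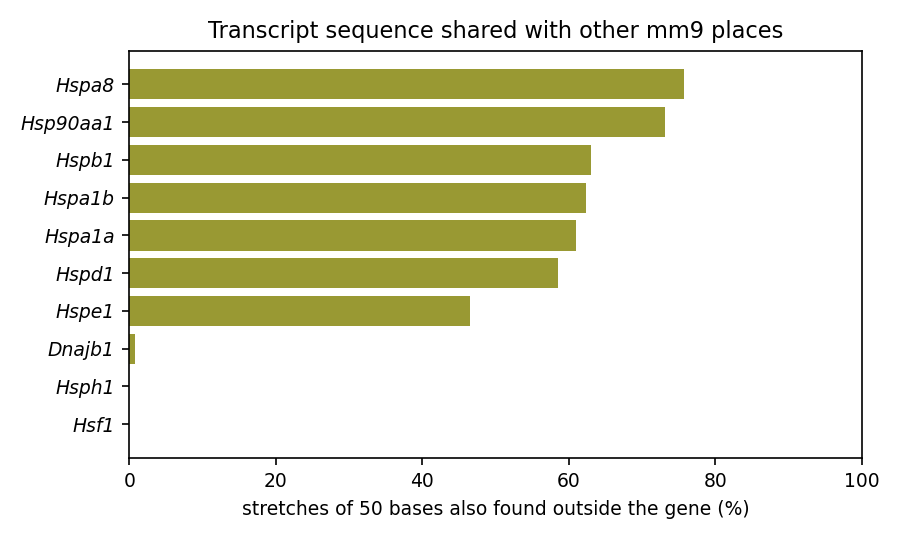
Share of the 50-base stretches of each transcript that also occur outside the gene in mm9 (x axis, %). Hspa8 has the highest share at 75.7%, while Hsf1 and Hsph1 have 0.

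Hsf1 (chromosome 15, 76307865 to 76331402 of mm9, plus strand), the factor itself, had 2094 and 2131 normalized counts (counts scaled to the mean library) in WT_CTCF 1 and 2, and 2051 and 2211 in MUT_CTCF 1 and 2. The MUT_CTCF libraries lay on either side of the WT_CTCF libraries. The log2 fold change was 0.013 (SE 0.062, 95% interval -0.11 to 0.14, adjusted p = 0.958), and its sign depended on the library left out. The other members of the HSF family and its regulators did not pass either. Of 5 tested, 0 were higher and 0 lower by edgeR's quasi-likelihood test, by its exact test and by DESeq2, with 1 at an unadjusted p under 0.05 and a median log2 fold change of 0.13. That gene was Hsbp1, whose product binds HSF1 trimers, with a log2 fold change of -0.14 (SE 0.054, adjusted p = 0.160).

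Hspa1a and Hspa1b encode the stress-inducible HSP70 and stand side by side on chromosome 17 of mm9, at 35106144 to 35109069 and 35093381 to 35096183, both on the minus strand. Of the 50-base stretches of Hspa1a, 59.4% are also in Hspa1b, and 62.1% the other way. Their promoters show the same likeness. In the RefSeq table of gene starts (GRCm38.p6), the 250 bases before the starts were identical at 247 positions (98.8%). The last 150 bases before each start, identical at 149 positions, are shown because both genes are classic targets of HSF1. A match to a heat shock element of 2 units, at -104 to -97 counted back from the start, is in capitals (chr17:34972157-34972306, minus strand, and chr17:34959239-34959388, minus strand).
Hspa1a: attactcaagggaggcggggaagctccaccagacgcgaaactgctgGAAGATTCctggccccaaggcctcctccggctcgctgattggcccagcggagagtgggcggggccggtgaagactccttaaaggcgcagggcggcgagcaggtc
Hspa1b: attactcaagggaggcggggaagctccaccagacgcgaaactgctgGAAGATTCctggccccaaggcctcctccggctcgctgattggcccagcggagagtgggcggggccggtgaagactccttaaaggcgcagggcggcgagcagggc

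Both inducible genes had the lowest levels of the 10. Hspa1a had 109 and 120 normalized counts in WT_CTCF and 127 and 131 in MUT_CTCF. Both MUT_CTCF values were above both WT_CTCF values, but at counts this low the log2 fold change of 0.17 had an SE of 0.236 (95% interval -0.31 to 0.64, adjusted p = 0.821). Hspa1b had 734 and 889 in WT_CTCF and 845 and 894 in MUT_CTCF. Its groups overlapped, with a log2 fold change of 0.098 (SE 0.095, 95% interval -0.092 to 0.29, adjusted p = 0.701), which was -0.034 without WT_CTCF 1. Because only uniquely mapped reads were counted, reads that fit both genes equally would be missing from both counts. Their counts were also summed, which does not bring such reads back. The sum was 844 and 1010 normalized counts in WT_CTCF and 972 and 1024 in MUT_CTCF, with a log2 fold change of 0.11 (SE 0.089, adjusted p = 0.642). Hspa1a also shares 552 exon positions with Gm20481 on the other strand, and whether counting was stranded is not given in the sources used here. Hspa1b had 6.66 to 7.39 times the counts of Hspa1a.

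Hspa8 (chromosome 9, 40609067 to 40613283) encodes HSC70, the constitutive HSP70 of the cytosol. It had 142611 and 140199 normalized counts in WT_CTCF and 137585 and 138850 in MUT_CTCF. Both MUT_CTCF libraries were below the WT_CTCF libraries, but the gap between the lines was smaller than the difference between the WT_CTCF libraries. The log2 fold change was -0.033 (SE 0.018, 95% interval -0.069 to 0.0029, adjusted p = 0.390), so a decrease of the size seen for Hsph1 or Hspb1 lay outside the interval. The annotated exons of Hspa8, joined over all its transcripts, overlap the small nucleolar RNA genes Snord14c, Snord14d and Snord14e. Within a library, the ratio of inducible to constitutive HSP70 per length, Hspa1a plus Hspa1b over Hspa8, was 0.00872 and 0.0106 in WT_CTCF and 0.0104 and 0.0109 in MUT_CTCF. The groups overlapped (exact permutation test, two-sided p = 0.667).

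The other HSP70 and HSP110 genes gave no call. Of 8 tested, 0 passed in either direction by edgeR's quasi-likelihood test, its exact test and DESeq2, 0 had an unadjusted p under 0.05, and the median log2 fold change was 0.0044. Hspa12a, a distant HSP70 relative, had the smallest p, with 131 and 73.2 normalized counts in WT_CTCF and 147 and 137 in MUT_CTCF (log2 fold change 0.47, SE 0.249, adjusted p = 0.368). Hspa1l, the testis-expressed neighbour of Hspa1a, had 15, 49, 24 and 15 counts, too few for a direction. Hspa2, another HSP70 known from the testis, had a log2 fold change of -0.013 (SE 0.092, adjusted p = 0.972).

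Hsph1 (chromosome 5, 150416862 to 150438951, minus strand) encodes HSP105, an HSP110 protein that exchanges the nucleotide of HSP70. RefSeq lists 2 starts of Hsph1. The same match lies at -54 to -47 from the downstream one. The 150 bases before the upstream start hold 1 match to a heat shock element of 2 units, at -33 to -26, in capitals (chr5:149636337-149636486, minus strand).
Hsph1: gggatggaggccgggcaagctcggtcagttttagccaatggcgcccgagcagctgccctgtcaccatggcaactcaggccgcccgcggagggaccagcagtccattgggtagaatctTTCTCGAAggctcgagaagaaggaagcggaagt

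Hsph1 had 7791 and 7922 normalized counts in WT_CTCF and 7026 and 7255 in MUT_CTCF. The groups did not overlap, and the gap between them was larger than the spread within either line. Hsph1 fell by 0.14 on the log2 scale (SE 0.037, 95% interval -0.21 to -0.064, adjusted p = 0.0228). Without each library in turn the log2 fold change was -0.16 to -0.11, with adjusted p from 0.127 to 0.484. It was 0.241 with no filter and 0.0708 with scaling on genes over 5000 counts.

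Dnajb1 (chromosome 8, 86132074 to 86135801) encodes HSP40, the J-domain protein that delivers clients to HSP70 and stimulates its ATPase. It had 5182 and 5524 normalized counts in WT_CTCF and 5002 and 5019 in MUT_CTCF. Both MUT_CTCF values were lower, but the WT_CTCF libraries differed from each other by more than WT_CTCF 1 differed from MUT_CTCF. The log2 fold change was -0.096 (SE 0.043, 95% interval -0.18 to -0.0094), with an unadjusted p of 0.0304 from edgeR's quasi-likelihood test and an adjusted p of 0.269. It was -0.050 without WT_CTCF 2 and -0.14 without WT_CTCF 1. Of 12 other cytosolic J-domain genes, 0 passed in either direction by edgeR's quasi-likelihood test, its exact test and DESeq2, with 2 at an unadjusted p under 0.05, 10 of 12 lower by sign and a median log2 fold change of -0.050. Over all tested genes, 15.3% had an unadjusted p under 0.05 and 49.2% were lower by sign. Dnajc7, which binds both HSP70 and HSP90, had the smallest p (log2 fold change -0.089, SE 0.034, adjusted p = 0.159). Of 9 other co-chaperones of HSP70, most of them for nucleotide exchange or degradation, 0 passed by the same 3 tests, with 1 at an unadjusted p under 0.05 and a median of -0.017. That gene was St13, the HSP70-interacting protein HIP (log2 fold change 0.083, SE 0.032, adjusted p = 0.160).

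Hspb1 (chromosome 5, 136363789 to 136365433, plus strand) encodes HSP25, the mouse form of HSP27, which holds unfolded proteins and binds actin. Its 150 bases before the start hold 2 separate matches of 2 units each, at -117 to -110 and at -97 to -90, in capitals (chr5:135887769-135887918, plus strand).
Hspb1: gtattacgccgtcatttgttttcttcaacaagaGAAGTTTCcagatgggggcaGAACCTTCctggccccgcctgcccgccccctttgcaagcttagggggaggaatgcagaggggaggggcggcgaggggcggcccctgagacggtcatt

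Hspb1 had 14876 and 14850 normalized counts in WT_CTCF and 13096 and 13947 in MUT_CTCF. The WT_CTCF libraries were almost equal, the MUT_CTCF libraries were less alike, and both were lower. Hspb1 fell by 0.14 on the log2 scale (SE 0.031, 95% interval -0.20 to -0.074, adjusted p = 0.00566), and of the 10 genes it had the smallest p. The log2 fold change was -0.092 without MUT_CTCF 1 and -0.18 without MUT_CTCF 2, and the adjusted p was 0.0621 to 0.484 without each library in turn and 0.260 with no filter. Of 9 other small heat shock protein genes, 8 were tested and 0 passed by edgeR's quasi-likelihood test, its exact test and DESeq2, with 0 at an unadjusted p under 0.05 and a median log2 fold change of 0.0086. Hspb3, at 2 to 11 counts, was not tested. Cryab, the gene of alpha-B crystallin, had the smallest p of the 8, with a log2 fold change of -0.16 (SE 0.153, adjusted p = 0.699).

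Hsp90aa1 (chromosome 12, 111928815 to 111940938, minus strand) encodes the inducible HSP90 alpha of the cytosol. It had 15382 and 15361 normalized counts in WT_CTCF and 14296 and 13970 in MUT_CTCF. The groups were well apart, with the WT_CTCF libraries almost equal. Hsp90aa1 fell by 0.12 on the log2 scale (SE 0.030, 95% interval -0.18 to -0.061, adjusted p = 0.0112). The log2 fold change was -0.14 to -0.11 without each library in turn, with adjusted p from 0.119 to 0.477, and the adjusted p was 0.202 with no filter and 0.0509 with scaling on genes over 5000 counts.

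Its constitutive paralog Hsp90ab1, HSP90 beta, did not pass the test. Hsp90ab1 had 328831 and 325907 normalized counts in WT_CTCF and 333120 and 332496 in MUT_CTCF. Both MUT_CTCF libraries were above the WT_CTCF libraries, with a log2 fold change of 0.024 (SE 0.015, 95% interval -0.0058 to 0.053, adjusted p = 0.476). Per length, Hsp90aa1 over Hsp90ab1 was 0.0357 and 0.0360 in WT_CTCF and 0.0327 and 0.0321 in MUT_CTCF, a log2 difference of -0.15. The groups of this ratio did not overlap (exact permutation test, two-sided p = 0.33, the smallest that 2 libraries against 2 can give). No 50-base stretch of Hsp90aa1 was found in Hsp90ab1. Among Hsp90ab1 and 11 co-chaperones of HSP90, 0 of 12 passed by edgeR's quasi-likelihood test, its exact test and DESeq2, with 4 at an unadjusted p under 0.05 (15.3% of all tested genes) and a median log2 fold change of -0.061. Ahsa1, the activator of the HSP90 ATPase, had the smallest p (log2 fold change -0.097, SE 0.034, adjusted p = 0.109).

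Hspd1 and Hspe1 encode HSP60 and HSP10, the barrel and the lid of the mitochondrial chaperonin, and are divergent genes that share one promoter on chromosome 1. In mm9 Hspd1 lies at 55134679 to 55145087 on the minus strand and Hspe1 at 55144976 to 55148151 on the plus strand, with 112 exon positions in common. The shared promoter is shown because it holds the longest match to a heat shock element found for these genes, 18 bases of 4 units in capitals, 89 to 72 bases before the start of Hspe1 (chr1:55087998-55088147, plus strand). RefSeq lists 2 starts of Hspd1. The one with 215 bases between it and the start of Hspe1 holds the same element at -144 to -127 as its reverse complement, TTCCGGAAGGTTCTAGAA, and the window before the other does not hold it.
Hspe1: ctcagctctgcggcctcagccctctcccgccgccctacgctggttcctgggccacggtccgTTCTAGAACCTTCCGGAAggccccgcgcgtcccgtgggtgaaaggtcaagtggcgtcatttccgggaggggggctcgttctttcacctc

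Only Hspe1 passed the test, and the difference between these neighbours was examined through their ratio alone. Hspd1 had 39845 and 39221 normalized counts in WT_CTCF and 39835 and 39392 in MUT_CTCF. Its groups overlapped, with a log2 fold change of 0.0029 (SE 0.024, 95% interval -0.044 to 0.050, adjusted p = 0.974). Hspe1 had 15033 and 14659 in WT_CTCF and 13758 and 13816 in MUT_CTCF, with the groups apart. It fell by 0.11 on the log2 scale (SE 0.030, 95% interval -0.17 to -0.046, adjusted p = 0.0335). Without each library in turn its log2 fold change was -0.13 to -0.089, with adjusted p from 0.109 to 0.484, and the adjusted p was 0.257 with no filter and 0.111 with scaling on genes over 5000 counts. Per length, Hspd1 over Hspe1 was 1.48 and 1.49 in WT_CTCF and 1.61 and 1.59 in MUT_CTCF, a log2 difference of 0.11 without overlap (exact permutation test, two-sided p = 0.33). That is the smallest p that 2 libraries against 2 can give, so this test could not decide on the difference. This ratio does not depend on the scaling between libraries. Its level depends on the lengths used, here 2642 annotated exon bases for Hspd1 and 1474 for Hspe1. The longest coding transcripts have 2423 and 774 bases, so the ratio does not settle which transcript was more abundant. The log2 difference was the same per read, 0.11. The part of the 112 shared exon positions in this ratio was not tested.

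**Figure D4:**
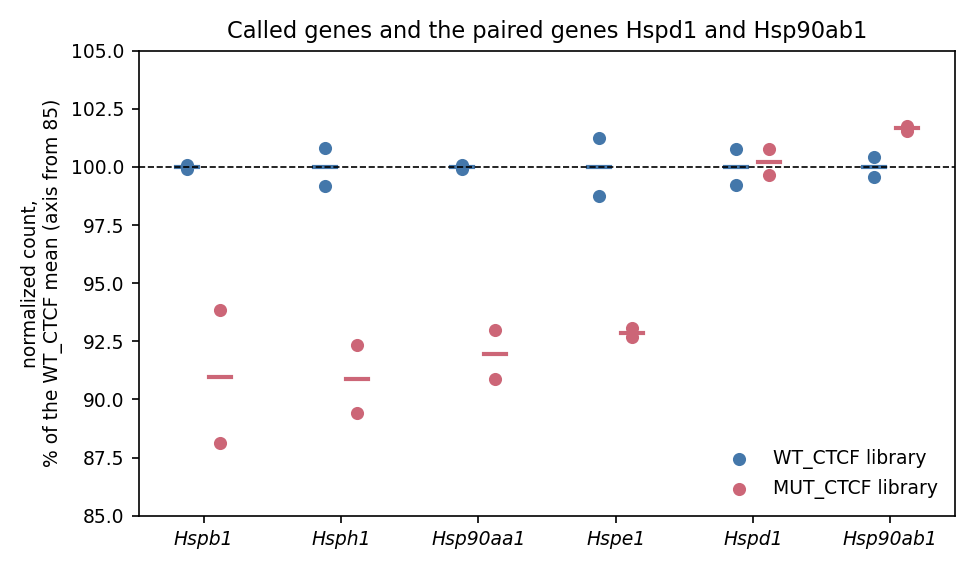
Normalized counts of the 4 genes that fell and of Hspd1 and Hsp90ab1 in each library, as a percentage of the WT_CTCF mean (y axis, from 85%), with a bar at each line's mean. In the 4 genes the MUT_CTCF means differ from the WT_CTCF means by -7.13% to -9.12%, while Hspd1 overlaps and Hsp90ab1 lies slightly above.

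Over all tested genes, 1.61% were called lower and 15.3% had an unadjusted p under 0.05. Of 10 other mitochondrial chaperones and proteases, 1 was lower and 0 higher, with 2 at an unadjusted p under 0.05 and a median log2 fold change of -0.042. The lower gene was Clpp, a matrix protease (log2 fold change -0.16, SE 0.046, adjusted p = 0.0308), which DESeq2 did not call, nor did the fits with no filter, with library size only, with scaling on genes over 5000 counts or with any library left out. Hspa9, the mitochondrial HSP70 that passes imported proteins to HSP60, had a log2 fold change of 0.036 (SE 0.026, adjusted p = 0.560). Of the 8 subunit genes of CCT, the chaperonin of the cytosol, 1 was lower and 0 higher, with 2 at an unadjusted p under 0.05 and a median of -0.0016. This was Cct8 (log2 fold change -0.16, SE 0.029, adjusted p = 0.000126), which shares 193 exon positions with Usp16 on the other strand and was not called without either MUT_CTCF library or with no filter. Of the 6 prefoldin genes, whose product hands clients to CCT, 0 passed by edgeR's quasi-likelihood test, its exact test and DESeq2, with 1 at an unadjusted p under 0.05 (Pfdn4, log2 fold change -0.17, adjusted p = 0.323) and a median of -0.077.

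Of 16 further genes that HSF1 is known to induce, some of which are also counted above, 0 were higher and 0 lower by edgeR's quasi-likelihood test, its exact test and DESeq2, with 3 at an unadjusted p under 0.05, 11 lower by sign and a median log2 fold change of -0.080. Over all tested genes, 15.3% had an unadjusted p under 0.05 and 49.2% were lower by sign. Cacybp, which encodes a partner of the ubiquitin ligase SIAH1, had the smallest p, with 5685 and 5778 normalized counts in WT_CTCF and 5247 and 5190 in MUT_CTCF. Its groups did not overlap (log2 fold change -0.14, SE 0.041, adjusted p = 0.0544), and it was called lower with at least 10 counts in every library (adjusted p = 0.0408).

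The ER chaperones, which answer to the unfolded protein response and not mainly to HSF1, are set beside these genes. Of 15 tested, 3 were lower and 0 higher, with 8 at an unadjusted p under 0.05, 11 lower by sign and a median log2 fold change of -0.078. Over all tested genes, 1.61% were called lower, 15.3% had an unadjusted p under 0.05 and 49.2% were lower by sign. Of genes over 5000 mean normalized counts, which include the 3 called here, 7.52% were called lower and 62.4% were lower by sign. The 3 were Calr (log2 fold change -0.12, SE 0.023, adjusted p = 0.000851), Hspa5, the HSP70 of the ER known as BiP (-0.12, SE 0.028, adjusted p = 0.00676), and Hsp90b1, the HSP90 of the ER (-0.15, SE 0.041, adjusted p = 0.0255). Hsp90b1 shares exon positions with 3 other genes. None of the 3 passed with no filter or without either MUT_CTCF library. Calr did not pass without WT_CTCF 1 (adjusted p = 0.0972), Hspa5 without WT_CTCF 2 (0.223) and Hsp90b1 without either (0.138 and 0.232), with library size only or with scaling on genes over 5000 counts. The difference between the heat shock genes and the ER chaperones was not tested.

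**Figure D5:**
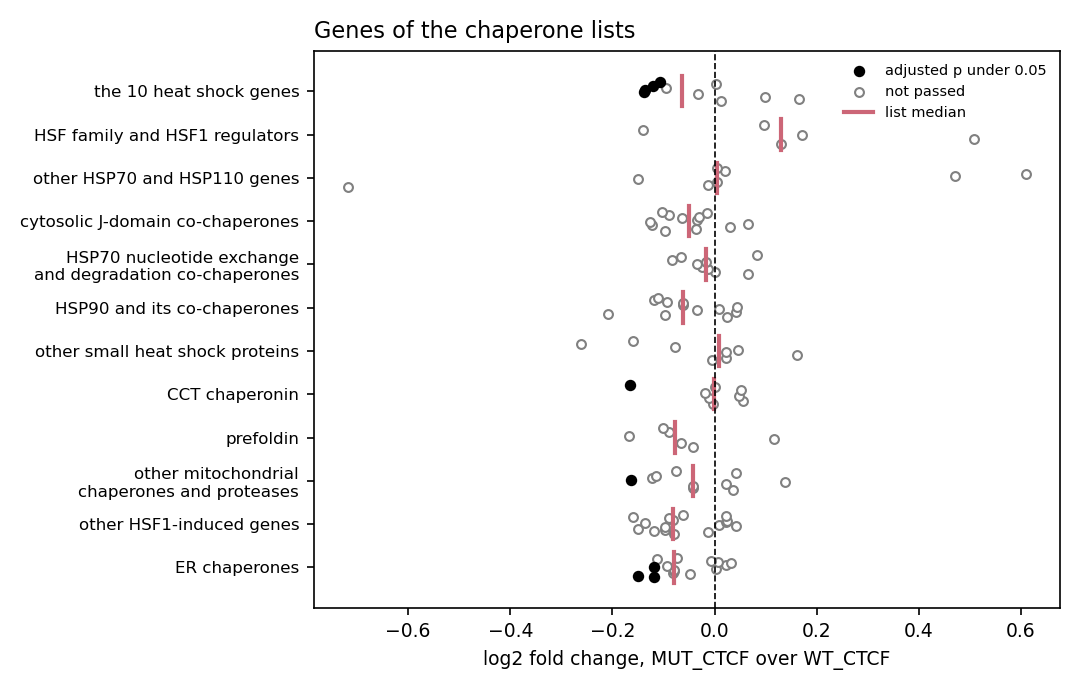
Log2 fold change of MUT_CTCF over WT_CTCF (x axis) of the tested genes reported from the 10 heat shock genes and 11 related lists (rows), with filled points for an adjusted p under 0.05 and a red bar at each list's median. Filled points are few and lie below 0, and the list medians lie between -0.080 and 0.13.

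Promoter sequence was compared with all genes in the RefSeq table, for the 7 of the 10 genes with an entry there. The letters of a heat shock element were searched in the 250 bases before each start on both strands. A run of 3 units (GAA, any 2 bases, TTC, any 2 bases and GAA, or its reverse complement) was in 2 of the 7 (Hspd1 and Hspe1, by the same element) and in 0.514% of the 27025 genes. A run of 2 units (GAA, any 2 bases and TTC, or TTC, any 2 bases and GAA), which every run of 3 units contains, was in 6 of the 7 and in 14.5% of all genes. These 6 are not independent. Hspd1 and Hspe1 matched by the same element, and the windows of Hspa1a and Hspa1b were identical at 98.8% of positions. Dnajb1 had no such match. CCAAT or ATTGG was in 4 of the 7 against 37.5% of all genes, and TATAAA in 0 of the 7 against 8.94%. The match is a description of letters, and the genes that fell and those that did not were both among those with a match. Hsph1, Hspb1 and Hspe1, which fell, held it, and so did Hspa1a, Hspa1b and Hspd1, which did not pass.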

How the data were processed

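Total RNA from 2 WT_CTCF and 2 MUT_CTCF mESC samples was sequenced. Per the methods and the submitters' processing notes, the authors trimmed reads (Trim Galore 0.4.4), aligned them to mm9 with STAR, counted uniquely mapped reads per gene with HTSeq 0.9.1 and deposited these counts without normalization. Strand setting, annotation version and read length are not given in the sources used here. The deposited table of the authors' own edgeR comparison (log2 fold changes, mean expression, p-values, false discovery rates) was not used. Each count column was mapped to its library by name.

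GENCODE M1 (mm9) named 37205 of 37620 gene identifiers and gave places and exon lengths. Genes were filtered with filterByExpr (minimum count 10), which left 16264 genes with over 99.9% of counts, scaled by TMM and tested with glmQLFit and glmQLFTest (edgeR 4.0.16, R 4.3.3) with the condition as the only term and Benjamini-Hochberg adjustment over all tested genes and a threshold of 0.05. Adjusted p-values in the text are from this test unless another is named. The common dispersion was 0.0022. Each SD is over 2 libraries. Total counts were 40524694 to 40977464 per library, which measures low-count genes with the least precision. The libraries of a line differed by more than sampling noise (chi-square per degree of freedom 3.65 and 4.33). Promoter sequence came from RefSeq (GRCm38.p6), another build than the count files.

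The members, gene lists and tests were chosen with earlier results of these data known. The genes named are the members, their paralogs Hspa1l, Hspa2, Hspa5, Hspa9, Hsp90ab1 and Hsp90b1, up to 4 called genes of each list or, where none was called, the gene with the smallest p, and Ctcf and Ogt. A result for 1 gene of the list of HSF1-induced genes is not reported here. Pseudogenes and overlapping genes are named where they share sequence with a member. Alternatives were DESeq2 1.42.0 and its size factors, library size only, no filter, at least 10 counts in every library, edgeR's exact test, a replicate block, each library left out and, chosen after seeing the data, scaling on genes over 5000 counts.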

Additional observations from a re-analysis of the deposited data

How the results depend on the processing

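The 4 genes called lower were 0 of 10 with no filter, 1 with scaling on genes over 5000 counts (chosen after seeing the data) and 0 to 0 with each library left out, a fit in which the lone library of a line is assumed to vary like the others. The signs of the 4 did not change under any setting run. No member was called higher under any setting run. The median log2 fold change of the 10 moved to -0.044 with scaling on genes over 5000 counts. Leaving out a library lowered the number of calls among all genes to 130 higher and 63 lower without WT_CTCF 1, 140 and 102 without WT_CTCF 2, and 0 and 0 without either MUT_CTCF library, and having no filter to 26 and 3. The cause was not tested.

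Among the lists, the lower call in CCT became 0 with no filter (0 to 1 with each library left out), and the 3 lower ER chaperones became 0 with no filter (0 to 1). The lower call among other mitochondrial genes became 0 with library size only, no filter, DESeq2 and scaling on genes over 5000 counts (0 to 0). Of the HSF1-induced genes, 1 (Cacybp) was called lower with at least 10 counts in every library and with the replicate block. Per read and not per length, the WT_CTCF mean was 2.66 for Hspd1 over Hspe1, 0.0470 for Hsp90aa1 over Hsp90ab1 and 0.00656 for inducible over constitutive HSP70.

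Of the values that were not called, some, among them those of Hspa8, Dnajb1 and Hsp90ab1, kept their sign with each library left out. Others changed sign. Their lowest and highest log2 fold changes were -0.044 (without MUT_CTCF 2) and 0.066 for Hsf1, which was -0.00025 without WT_CTCF 1, -0.034 (without WT_CTCF 1) and 0.24 for Hspa1b, -0.0095 (without WT_CTCF 2) and 0.014 for Hspd1, which was -0.0051 without MUT_CTCF 1, -1.33 and 0.37 (without WT_CTCF 2) for Hspa1l, -0.13 and 0.11 (without WT_CTCF 1) for Hspa2, which was 0.038 without MUT_CTCF 1, and -0.36 and 0.013 (without MUT_CTCF 2) for Cryab. Hspa2 was 0.0077 with scaling on genes over 5000 counts.

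The replicate numbers did not pair the libraries (correlation of the WT_CTCF and MUT_CTCF differences 0.0189 over 11593 genes). With the replicate number as a block, the 4 genes remained the calls among the 10, and all genes gave 326 higher and 372 lower.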
